A study of Mus musculus with 9 samples.

Results

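Hepatocytes clear bile acids and other organic anions from the blood and move them into bile, and 10 transporter genes that carry out these steps were described across control, fibrotic and recovered mouse liver. They were taken by gene symbol from a table of 21873 genes, and each symbol matched 1 gene. Of these 10, 4 encode uptake carriers of the sinusoidal membrane (Slc10a1, Slco1a1, Slco1a4 and Slco1b2), 3 encode pumps of the canalicular membrane (Abcb11, Abcb4 and Abcc2) and 3 encode basolateral exporters (Abcc3, Abcc4 and Slc51b). Liver mRNA had been sequenced from 9 male C57BL/6 mice, 3 per group, which were 8 weeks old when the treatment began. The control group (NS) received normal saline intraperitoneally for 8 weeks, and the TAA group received thioacetamide, a hepatotoxin, in the same way. Control and TAA mice were killed within days of the last injection, so recent dosing and fibrosis coincide in the TAA group. The recovery group (Re) received thioacetamide for 8 weeks and was then left untreated for another 8 weeks. The recovery mice were therefore 8 weeks older than the other mice at collection, and control mice of that age were not analysed here.

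Bile acids are made from cholesterol in hepatocytes, secreted into bile by ATP-driven pumps, reabsorbed in the intestine and taken up again from portal blood, mostly by the sodium-dependent carrier NTCP, the product of Slc10a1. Organic anion transporting polypeptides, encoded by the Slco genes, take up bile acids, bilirubin, hormones and drugs without sodium. Basolateral exporters return bile acids and conjugates to the blood, and the nuclear receptor FXR (Nr1h4) senses bile acids in the hepatocyte. In cholestatic liver, lower uptake and higher basolateral export are a well-known response.

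The values are FPKM (fragments counted per gene, relative to gene length and to the mapped fragments of the library) divided by 1 median-of-ratios factor per library, called scaled FPKM below. This scale divides by gene length, so levels can be compared between genes only roughly, as the length used for each gene is not stated. In the GENCODE M21 annotation, the exons of Abcb4 together cover 9383 bases, while its longest transcript has 4079. For Abcb11 these lengths are 5146 and 5025. Levels, shares and orders across genes depend on this choice. Low FPKM values tended to lie on even steps, which put the depth of the libraries at about 26.8 to 40.6 M fragments if a step is 1 fragment. Only 58.5% to 65.7% of the low values were within 0.08 of a whole step, and a depth 1.99 to 2.01 times as large scored best in every library, so fragment numbers below are rough estimates. Groups were compared with limma on log2(scaled FPKM + 0.1) over 14094 genes, and a gene was called at a Benjamini-Hochberg adjusted p below 0.05 with a fold change of at least 2. Between libraries of 1 group, Pearson's r across genes was 0.975 to 0.987, which describes the libraries and is no test. The control 1 library stood apart in some non-parenchymal genes. Its summed scaled FPKM was 95.3 over 6 macrophage markers and 48.2 over 5 endothelial markers, whereas the lower of the other control libraries had 155 and 85.8, respectively. The libraries matched hepatocyte-rich tissue in every group, since Alb, the serum albumin gene, had a scaled FPKM of 17378 to 36663. Over 12 hepatocyte markers, the summed scaled FPKM was 45345 to 49122 in control mice, 28070 to 35878 in TAA mice and 55291 to 57336 in recovery mice. Most of this sum was Alb, and the fall in TAA mice depended on the scaling. The median log2 fold change of the 12 markers between TAA and control mice was -0.80 on this scaling. It was -0.16 with FPKM as deposited and 0.50 with quantile normalization. In whole liver, fewer hepatocytes and less RNA per hepatocyte cannot be told apart, nor can either be told from an effect of the scaling.

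Promoter sequences from RefSeq (GRCm38.p6) were matched by symbol for 9 of the 10 genes, and Abcc3 was not among them. The 250 bases upstream of the annotated start are printed for 4 genes on which the results turn. These are the main bile acid uptake carrier, the gene with the largest fall, the bile salt pump, which was not called, and Abcc4, an exporter that was higher with thioacetamide. All 4 are on the minus strand and are written from 5′ to 3′ of the gene. Capitals mark AGGTCA, the half-site of several nuclear receptors, and TGACNNNGC, the core of the antioxidant response element, in either orientation. The locations are chr12:80968706-80968955 for Slc10a1, chr6:141946963-141947212 for Slco1a1, chr2:69342617-69342866 for Abcb11 and chr14:118706220-118706469 for Abcc4.
Slc10a1: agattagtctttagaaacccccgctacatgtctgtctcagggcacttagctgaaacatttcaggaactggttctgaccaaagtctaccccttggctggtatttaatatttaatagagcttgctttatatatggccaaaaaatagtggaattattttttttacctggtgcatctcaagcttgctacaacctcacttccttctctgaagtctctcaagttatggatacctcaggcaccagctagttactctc
Slco1a1: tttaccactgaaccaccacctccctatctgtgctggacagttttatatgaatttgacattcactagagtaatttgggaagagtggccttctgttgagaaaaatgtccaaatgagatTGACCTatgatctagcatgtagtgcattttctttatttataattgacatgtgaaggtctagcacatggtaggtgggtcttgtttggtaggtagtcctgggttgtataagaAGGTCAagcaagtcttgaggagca
Abcb11: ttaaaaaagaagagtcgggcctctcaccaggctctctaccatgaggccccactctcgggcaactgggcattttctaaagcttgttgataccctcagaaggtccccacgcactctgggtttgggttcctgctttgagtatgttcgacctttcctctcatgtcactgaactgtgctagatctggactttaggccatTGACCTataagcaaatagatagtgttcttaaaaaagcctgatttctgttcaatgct
Abcc4: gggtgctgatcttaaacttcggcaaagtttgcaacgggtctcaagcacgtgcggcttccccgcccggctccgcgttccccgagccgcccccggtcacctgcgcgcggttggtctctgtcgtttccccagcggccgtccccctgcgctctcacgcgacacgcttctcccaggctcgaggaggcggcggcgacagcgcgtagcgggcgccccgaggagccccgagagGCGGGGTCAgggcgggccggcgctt
In these windows, AGGTCA was present in 5 of the 9 genes and in 14.0% of the 32851 promoters of the table. Slco1a1 held it at -134 to -129 and at -24 to -19, counted from the base before the start as -1. Slc10a1 held neither marked motif. Abcb11 held AGGTCA at -56 to -51, and Slco1b2, Abcc2 and Slc51b held 1 match each. TGACNNNGC was present in Abcc4 at -25 to -17 and in Abcc2 at -98 to -90, and in 10.2% of all promoters. The inverted repeat of the half-site with 1 base between (IR1) is a consensus of the FXR element. It had no exact match in the 9 windows and was present in 0.00609% of all promoters. Only exact matches were searched, so an element with a mismatch was not found. In Abcb11, the letters aggccat just before the marked TGACCT differ from this repeat by 1 base. The marked motifs did not overlap each other. In all, 17 motifs were searched on both strands, and these 3 were chosen after the matches were seen, so they describe the letters only.

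After 8 weeks of thioacetamide, all 4 uptake genes were lower, the canalicular pumps were divided, and the basolateral exporters moved in opposite directions. Between TAA and control mice, 8 of the 10 genes were called, with 2 higher and 6 lower in the TAA mice, and the counts were the same without control 1. Slc51b, at a mean of 0.049 in the control mice, passed the filter on low values through the treated groups, and without it 7 of 9 genes were called. Over all tested genes, 25% were called, 17% higher and 8.02% lower. An adjusted p below 0.05, whatever the fold, was reached by 9 of the 10 genes and by 54.5% of all tested genes. The median log2 fold change of the 10 genes was -1.32, and that of all genes was 0.02. The split depended on the scaling, and was 2 higher and 4 lower with FPKM as deposited, 2 and 3 with quantile normalization, and 3 and 4 with libraries scaled to the hepatocyte markers. Over all 14094 tested genes, the split was 4382 higher and 421 lower with FPKM as deposited and 1534 and 1355 with quantile normalization. With the hepatocyte scaling it was 5469 and 336. On scaled FPKM, the groups did not overlap for 9 of the 10 genes, as for 63.6% of all tested genes.

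**Figure D1:**
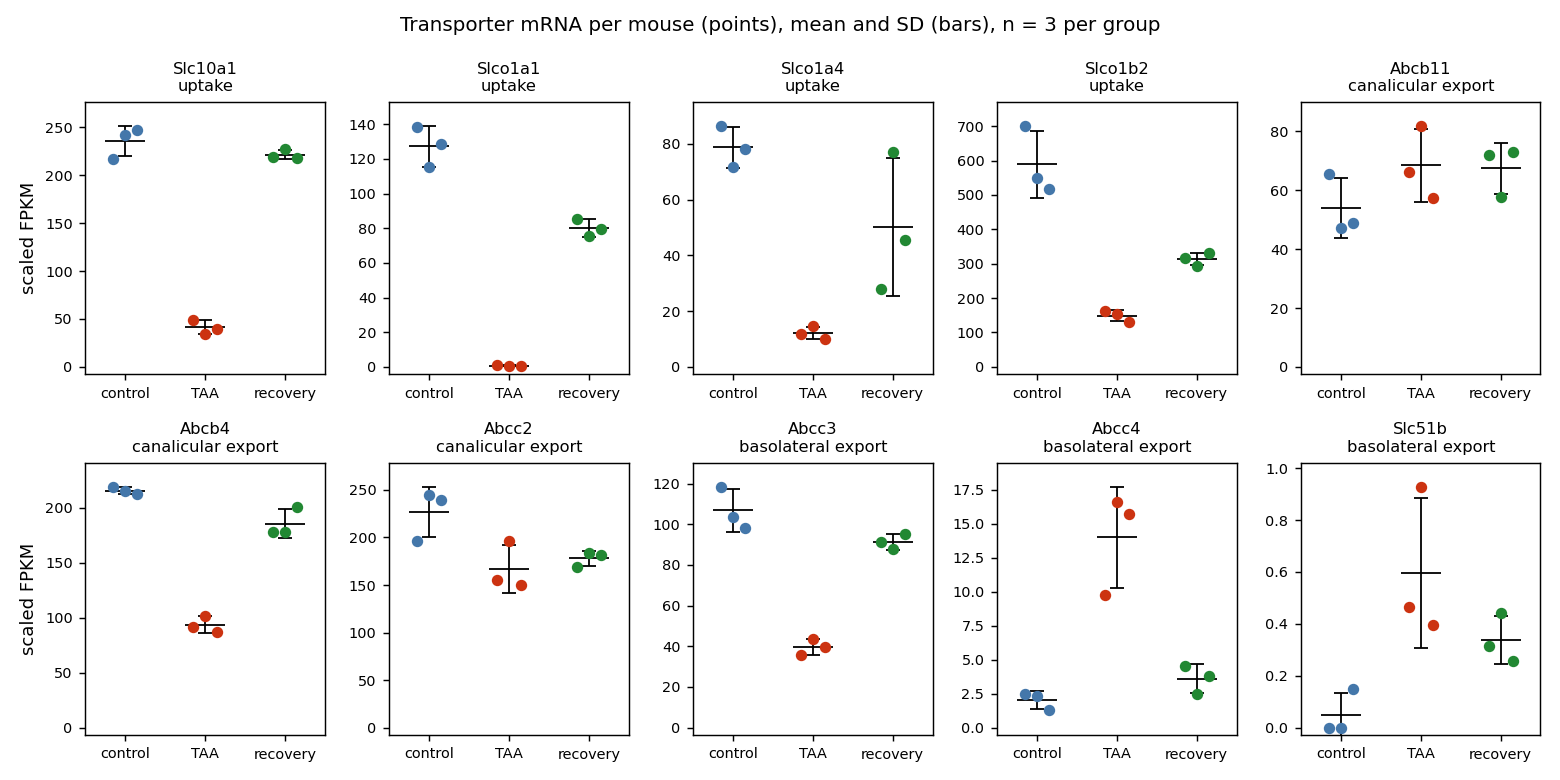
Scaled FPKM (linear axes from 0, 1 panel per gene) of the 10 transporter genes in the control, TAA and recovery groups, with 1 point per mouse and black bars for the mean and SD (n = 3). The TAA points lie below all control points for the 4 uptake genes, Abcb4, Abcc2 and Abcc3, and above them for Abcc4 and Slc51b. For Abcb11 the groups overlap.

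Slco1a1 (ENSMUSG00000041698, chromosome 6 of mm10, 141897853 to 141946962) encodes the organic anion carrier Oatp1a1, which is known to be higher in livers of male than of female mice. Measured as scaled FPKM, it was at 138, 115 and 128 in the control mice, 0.996, 0.671 and 0.720 in the TAA mice and 85.4, 75.3 and 79.4 in the recovery mice. The 3 groups were fully separated, with the TAA mice at 0.625% of the control mean. From control to TAA the log2 fold change was -7.17 (SE 0.15, adjusted p = 5.40e-07), and from TAA to recovery it was 6.50 (SE 0.15, adjusted p = 5.91e-07). These are the largest changes among the 10 genes in both comparisons, also under each of the other 3 scalings. From depth and exon length, the 3 TAA libraries held about 274, 181 and 202 fragments of this gene, so the low level was not at the limit of detection.

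Slc10a1 (ENSMUSG00000021135, chromosome 12, 80953183 to 80968705) had a scaled FPKM of 217, 242 and 247 in the control mice and 49.3, 34.6 and 39.9 in the TAA mice. In the recovery mice it was 219, 227 and 218, within the range of the control mice. The log2 fold change was -2.52 with thioacetamide (SE 0.14, adjusted p = 1.21e-05) and 2.44 in recovery against TAA (SE 0.13, adjusted p = 1.18e-05). Between the recovery and control groups it was -0.09, with a 95% interval of -0.27 to 0.10. A difference of 2-fold between recovered and control liver lies outside this interval.

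Slco1a4 (ENSMUSG00000030237, chromosome 6, 141805440 to 141856199) encodes Oatp1a4, a further bile acid and drug uptake carrier. It had a scaled FPKM of 86.4, 71.5 and 78.3 in the control mice, 11.9, 14.5 and 10.03 in the TAA mice and 28.1, 76.9 and 45.4 in the recovery mice. It fell by 2.70 on the log2 scale with thioacetamide (SE 0.14, adjusted p = 1.18e-05) and rose by 1.93 in recovery (SE 0.33, adjusted p = 0.00197). The recovery mice were widely spread, and 1 of them lay within the control range while the other two lay below it. The mean of the recovery group was 63.6% ± 31.4 (SD, n = 3) of the control mean, the widest spread of the 4 uptake genes.

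Slco1b2 (ENSMUSG00000030236, chromosome 6, 141629518 to 141686646) encodes Oatp1b2, the mouse counterpart of the human OATP1B carriers. With a scaled FPKM of 701, 549 and 517 in the control mice it was the most abundant of the 10 genes, and it was at 162, 155 and 131 in the TAA mice and 316, 295 and 331 in the recovery mice. The fall was 1.97 on the log2 scale (SE 0.15, adjusted p = 3.86e-05) and the rise in recovery 1.08 (SE 0.11, adjusted p = 1.72e-04). All 3 recovery mice stayed between the TAA and the control mice. With quantile normalization the fall was -0.97 and not called, and the rise in recovery was 0.52 with FPKM as deposited, 0.26 with quantile normalization and 0.12 with the hepatocyte scaling, none of them called.

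Slco1a1 and Slco1a4 lie in a cluster of related genes on chromosome 6, and reads of near-identical stretches may be divided between them. Of the 50-base stretches of the longest transcript, 2.26% in Slco1a1 and 2.73% in Slco1a4 also occurred in a transcript of another gene, mostly in each other and in Slco1a5. Slco1a5 was almost absent, with a scaled FPKM of at most 0.0268 in any library. Slc10a1 and Slco1b2 shared no such stretch.

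The canalicular pumps did not move as 1 group. Abcb11 (ENSMUSG00000027048, chromosome 2, 69238282 to 69342616) encodes the bile salt export pump, which drives bile acids into the canaliculus. Its level was 65.6, 47.3 and 48.8 (scaled FPKM) in the control mice, 66.3, 81.9 and 57.3 in the TAA mice and 71.9, 57.6 and 72.9 in the recovery mice. The control and TAA groups overlapped, as did the TAA and recovery groups, but control 1 alone lay within the TAA range. The difference between TAA and control was 0.35 on the log2 scale, with a 95% interval of -0.05 to 0.74 (adjusted p = 0.124). Without control 1 it was 0.49 (adjusted p = 0.0373), still under 2-fold. Between recovery and TAA it was -0.01, with an interval of -0.37 to 0.34 (adjusted p = 0.947). On this scaling neither interval holds a 2-fold change. The difference between TAA and control was 0.98 with FPKM as deposited, 0.97 with quantile normalization and 1.17 with the hepatocyte scaling, where it was called (adjusted p = 2.30e-04), and that between recovery and TAA was -0.57, -0.58 and -0.97, respectively. It was thus positive in the TAA group under all 4 scalings, while the values of the 4 uptake genes were negative.

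Abcb4 (ENSMUSG00000042476, chromosome 5, 8893717 to 8959231) encodes the phospholipid floppase MDR2, which supplies bile with phosphatidylcholine. At a scaled FPKM of 219, 215 and 212 the control mice differed little from each other, and the values were 91.3, 102 and 86.8 in the TAA mice and 178, 178 and 200 in the recovery mice. It fell by 1.21 on the log2 scale (SE 0.09, adjusted p = 4.06e-05). The change in recovery was 0.99 (SE 0.10, adjusted p = 1.54e-04), just short of the 2-fold criterion, and it was 1.05, 1.02 and 1.02 without TAA 2, recovery 1 or recovery 2, which meets it. The fall did not reach 2-fold with FPKM as deposited (-0.57), with quantile normalization (-0.42) or with the hepatocyte scaling (-0.39).

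Abcc2 (ENSMUSG00000025194, chromosome 19, 43782192 to 43840740) encodes MRP2, which exports bilirubin glucuronides and glutathione conjugates into bile. The scaled FPKM was 196, 245 and 239 in the control mice, 155, 196 and 150 in the TAA mice and 169, 183 and 182 in the recovery mice. The highest TAA value lay just below the lowest control value. The log2 fold change in the TAA group was -0.44 (SE 0.14, adjusted p = 0.0282), which is under 2-fold, and its sign was the opposite with FPKM as deposited (0.19), quantile normalization (0.51) and the hepatocyte scaling (0.38). In recovery against TAA it was 0.10 (95% interval -0.18 to 0.38, adjusted p = 0.512). No direction can be given for this gene without choosing a scaling.

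Some reads of these genes are ambiguous. The library kit as named in the methods does not mark strand, and Abcb11 overlaps the antisense gene Gm13613 and the pseudogene Gm13614 in its exons, neither of which the table lists. In Abcb4, 3.42% of the 50-base stretches were shared, mostly with Abcb1a, whose scaled FPKM was 6.14 at most.

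Among the basolateral exporters, Abcc3 fell while Abcc4 and Slc51b rose. Abcc4 (ENSMUSG00000032849, chromosome 14, 118482692 to 118706219) encodes MRP4, which exports bile acids together with glutathione, and cyclic nucleotides. Its scaled FPKM was 2.46, 2.31 and 1.30 in the control mice, 9.71, 16.5 and 15.7 in the TAA mice and 4.52, 2.46 and 3.83 in the recovery mice. Every TAA mouse was above every other mouse. The log2 fold change was 2.74 with thioacetamide (SE 0.29, adjusted p = 1.82e-04) and -1.93 in recovery against TAA (SE 0.27, adjusted p = 7.16e-04). Between the recovery and control groups the difference was 0.81, with a 95% interval of 0.06 to 1.56, and it did not pass (adjusted p = 0.188).

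Abcc3 (ENSMUSG00000020865, chromosome 11, 94343295 to 94392997) encodes MRP3, which exports glucuronides and bile acids to the blood. Its scaled FPKM was 118, 104 and 98.0 in the control mice, 35.5, 43.5 and 39.4 in the TAA mice and 91.0, 87.6 and 95.2 in the recovery mice. The TAA mice were below all others, and the recovery mice were just below the control mice. The fall was 1.43 on the log2 scale (SE 0.11, adjusted p = 4.78e-05) and the rise in recovery 1.21 (SE 0.10, adjusted p = 5.86e-05). Neither was called with FPKM as deposited, where the values were -0.80 and 0.65, with quantile normalization (-0.86 and 0.73) or with the hepatocyte scaling (-0.61 and 0.26).

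Slc51b (ENSMUSG00000053862, chromosome 9, 65412714 to 65422955) encodes OSTβ, the smaller subunit of a bile acid exporter, and is a well-known FXR target. It was listed at 0 in control 1 and 2 and had a scaled FPKM of 0.148 in control 3, which is about 3 fragments. It was 0.463, 0.929 and 0.395 in the TAA mice and 0.316, 0.441 and 0.256 in the recovery mice. The TAA and recovery mice were all above the control mice and overlapped each other. From the estimated fragments, 66 in the TAA libraries against 3 in the control libraries, the ratio was 11.4, with an exact 95% interval of 3.73 to 56.7 that covers counting error only. The fitted log2 fold change was 2.29 (SE 0.44, adjusted p = 0.00363), and it depended on the number added to each value, being 4.49 with 0.01 and 0.59 with 1. In recovery against TAA it was -0.61 (95% interval -1.35 to 0.12, adjusted p = 0.144).

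Even in the TAA group, Slc51b was at a low level, and its partner subunit Slc51a was listed at 0.145 or less in every library and did not pass the filter on low values. Slc51b overlaps Rasl12 on the opposite strand, with 6.52% of its 50-base stretches shared, and Rasl12 had a scaled FPKM of 0.0337 to 0.223 in the TAA mice. The part of Rasl12 in the Slc51b values was not tested.

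**Figure D2:**
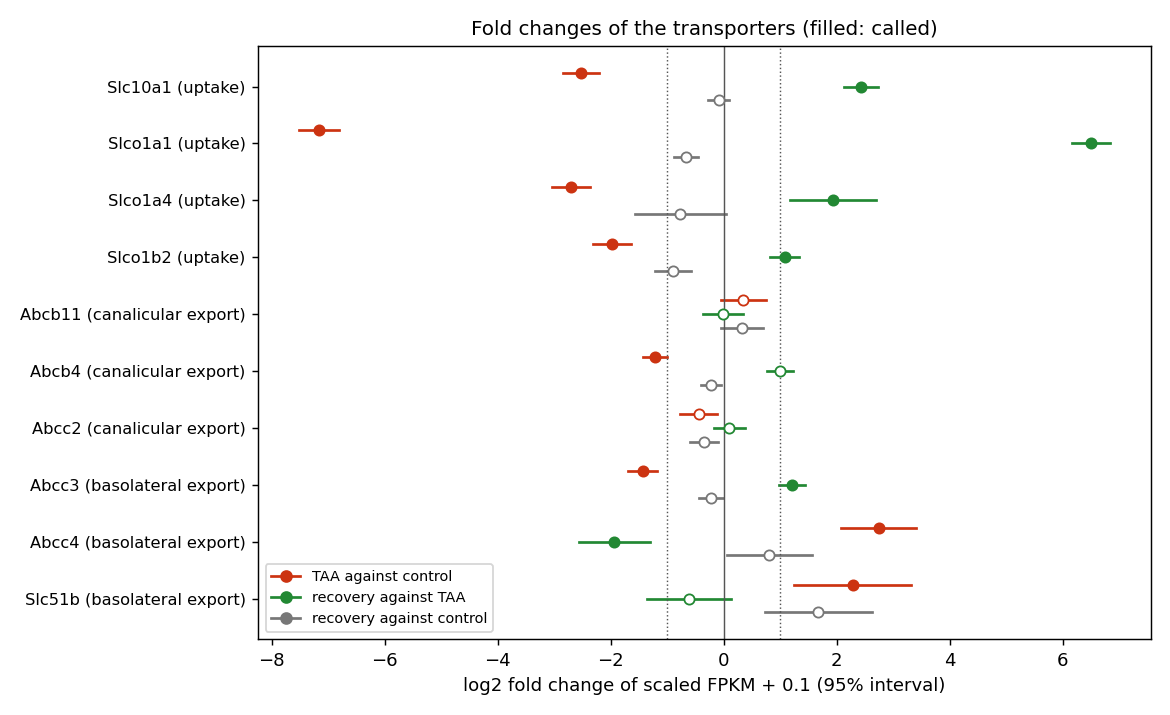
Log2 fold changes (x axis, on scaled FPKM + 0.1) of the 10 transporter genes with 95% intervals from limma, for TAA against control (red), recovery against TAA (green) and recovery against control (grey). Filled points were called and open points were not, and dotted lines mark a 2-fold change. The 4 uptake genes have red points from -7.17 to -1.97 and green points from 1.08 to 6.50.

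Ratios between genes of 1 library do not depend on the scaling factor, but they do depend on the gene lengths used. The ratio of Abcb11 to Slc10a1 was 0.302, 0.196 and 0.197 in the control mice, 1.34, 2.37 and 1.44 in the TAA mice and 0.329, 0.254 and 0.334 in the recovery mice. The bile salt pump thus had less mRNA per length than NTCP in every control and recovery mouse, and more in every TAA mouse. The summed FPKM of the 3 canalicular pumps was 0.485 ± 0.056 (SD, n = 3) of that of the 4 uptake genes in control mice, 1.63 ± 0.231 in TAA mice and 0.648 ± 0.026 in recovery mice. The groups did not overlap, and the recovery mice lay between the others.

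Within the uptake genes, Slco1b2 held 56.9% ± 4.09 (SD, n = 3) of the summed FPKM in control mice, 73.3% ± 2.04 in TAA mice and 47.2% ± 3.02 in recovery mice. Slco1a1 held 12.4% ± 0.760, 0.390% ± 0.059 and 12.05% ± 1.03, respectively. The share of Slc10a1 was 23.1% ± 3.54 in control mice and 20.3% ± 2.94 in TAA mice, which overlapped, and 33.3% ± 0.803 in recovery mice, above every control mouse. The uptake mRNA of recovered liver thus held a larger share of Slc10a1 and a smaller share of Slco1b2 than that of any control mouse.

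**Figure D3:**
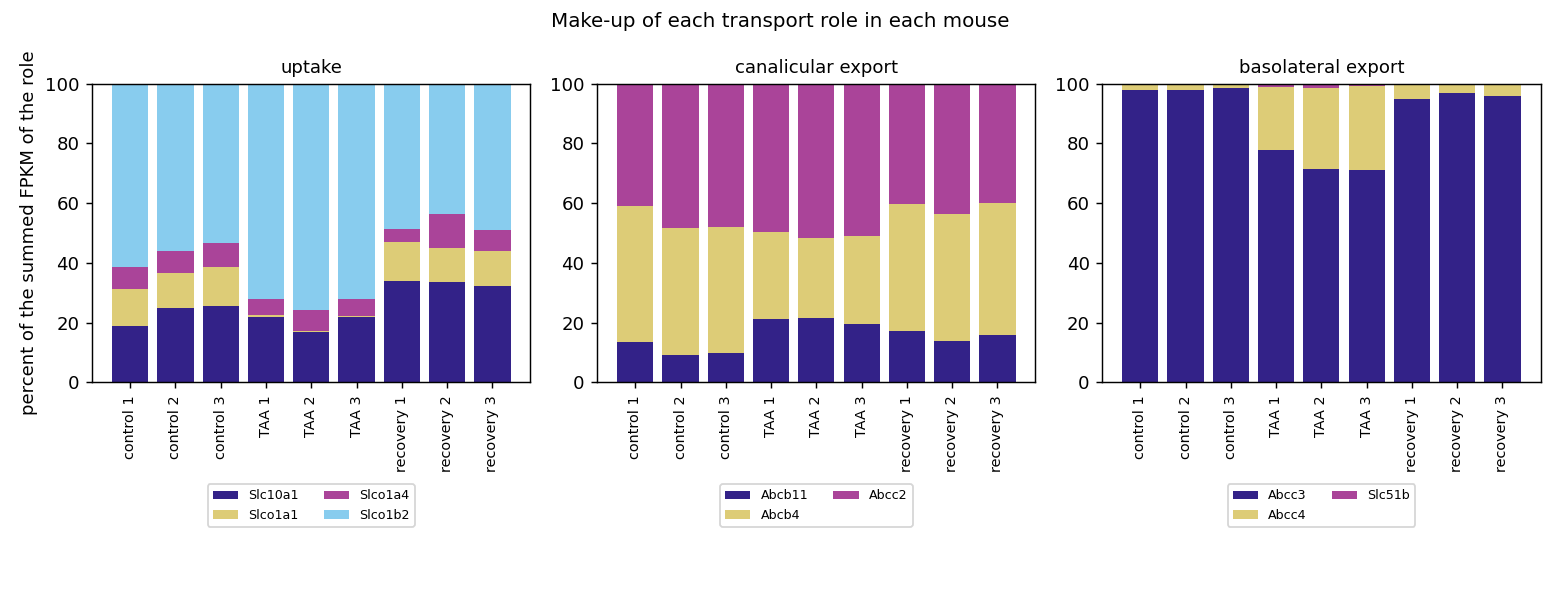
Share of each gene in the summed FPKM of its transport role (y axis, percent) in each of the 9 mice, with 1 stacked bar per mouse and 1 panel per role. Slco1a1 is nearly absent from the uptake bars of the TAA mice (0.328% to 0.445%), and Abcc4 takes 21.3% to 28.3% of the basolateral bars there, against 1.30% to 2.18% in the control mice.

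Within the canalicular pumps, the share of Abcb4 went from 43.4% ± 1.80 (SD, n = 3) in control mice to 28.5% ± 1.46 in TAA mice and 43.0% ± 0.879 in recovery mice. That of Abcb11 was 10.9% ± 2.38, 20.7% ± 1.13 and 15.6% ± 1.74. Within the basolateral exporters, Abcc3 remained the most abundant gene in every mouse, at 98.1% ± 0.385 in control mice and 73.4% ± 3.77 in TAA mice. The ratio of Abcc4 to Abcc3 was 0.019 ± 0.005 in control mice, 0.351 ± 0.067 in TAA mice and 0.039 ± 0.011 in recovery mice, with no overlap between groups.

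The order of the levels changed with the treatment. In the control group the scaled FPKM ran from Slco1b2 (589) over Slc10a1 (235), Abcc2 (227), Abcb4 (215), Slco1a1 (127), Abcc3 (107), Slco1a4 (78.7) and Abcb11 (53.9) to Abcc4 (2.02) and Slc51b (0.049). Neighbours with overlapping ranges were Slc10a1 and Abcc2, Abcc2 and Abcb4, and Slco1a1 and Abcc3. In the TAA group the order was Abcc2 (167), Slco1b2 (149), Abcb4 (93.3), Abcb11 (68.5), Slc10a1 (41.3), Abcc3 (39.5), Abcc4 (14.0), Slco1a4 (12.2), Slco1a1 (0.795) and Slc51b (0.596). Abcc2 and Slco1b2, Slc10a1 and Abcc3, Abcc4 and Slco1a4, and Slco1a1 and Slc51b overlapped there. With thioacetamide, all 3 canalicular pumps were therefore above Slc10a1. Among recovery mice the highest level was again that of Slco1b2 (314), followed by Slc10a1 (221), Abcb4 (185) and Abcc2 (178), of which the latter pair overlapped. Below these were Abcc3 (91.3), Slco1a1 (80.0), Abcb11 (67.5), Slco1a4 (50.1), Abcc4 (3.60) and Slc51b (0.338), and only Abcb11 and Slco1a4 overlapped.

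In recovery against TAA, 6 of the 10 genes were called, 5 higher (the 4 uptake genes and Abcc3) and 1 lower (Abcc4). Over all tested genes 21.4% were called, 7.12% higher and 14.3% lower. An adjusted p below 0.05 was reached by 7 of the 10 genes and by 50.5% of all tested genes, and the groups did not overlap for 7 of the 10 genes and for 60.3% of all tested genes. The split was 3 higher and 2 lower with FPKM as deposited, 3 and 1 with quantile normalization, and 2 and 2 with the hepatocyte scaling. Over all 14094 tested genes, it was 409 higher and 3728 lower with FPKM as deposited and 1198 and 1379 with quantile normalization. With the hepatocyte scaling it was 238 and 6279. On the median-of-ratios scaling, the median log2 fold change was 2.18 over the uptake genes, 0.10 over the canalicular pumps and -0.01 over all genes. This comparison shares its TAA mice with the comparison against the control group, so a fall there and a rise here are not independent.

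**Figure D4:**
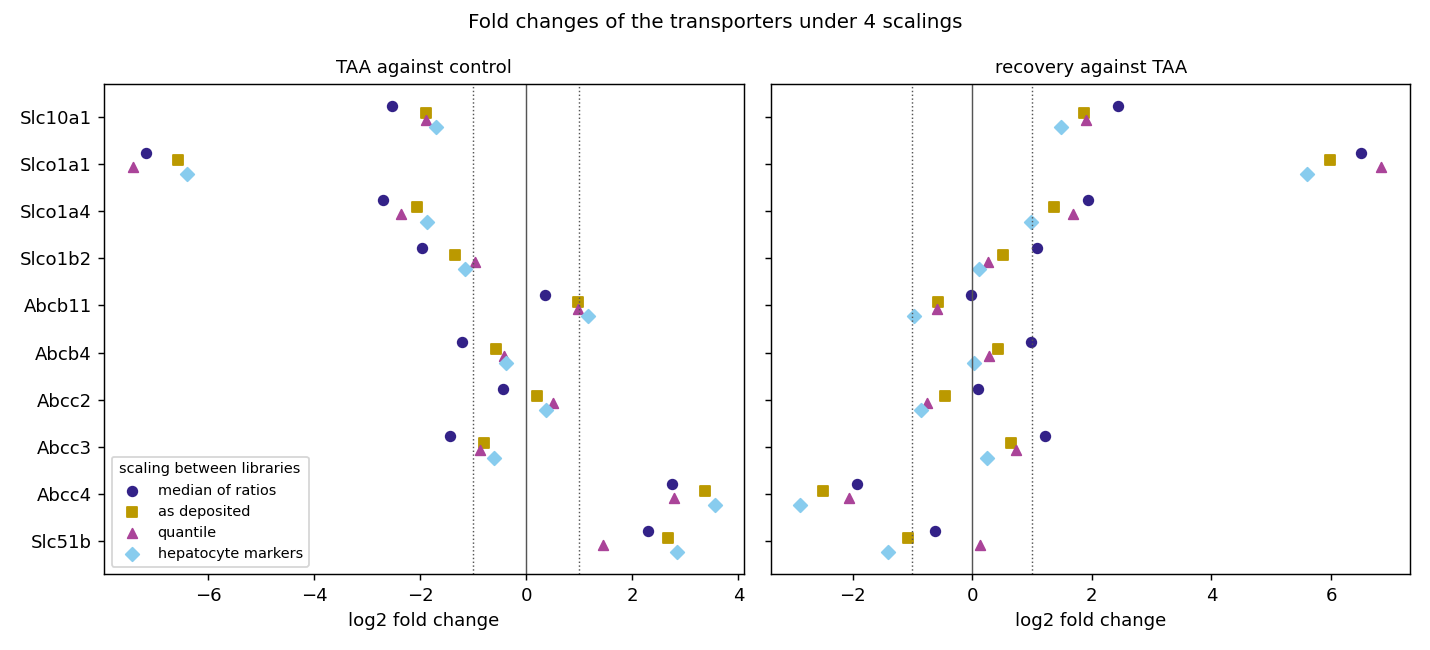
Log2 fold changes (x axis) of the 10 transporter genes (y axis) under 4 scalings between libraries, for TAA against control (left) and recovery against TAA (right), with dotted lines at a 2-fold change. In the left panel Slc10a1, Slco1a1, Slco1a4, Slco1b2, Abcb4 and Abcc3 stay below 0, Abcb11, Abcc4 and Slc51b stay above 0, and Abcc2 lies on both sides. In the right panel Abcc2 and Slc51b lie on both sides of 0.

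The choice of scaling moved the median of all genes as well. From control to TAA it was 0.63 with FPKM as deposited and 0.80 with the hepatocyte scaling, and in recovery against TAA it was -0.55 and -0.92. Relative to the hepatocyte markers, Slc10a1 changed by -1.70 and 1.48, Slco1a1 by -6.40 and 5.60, and Abcc4 by 3.55 and -2.87, and all of these were called. Slco1a4 changed by -1.88, which was called, and by 0.98, which was just short of 2-fold. For Slco1b2 the fall of 1.15 was called and the recovery change was 0.12 (adjusted p = 0.285).

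Between the recovery and control groups, 0 of the 10 genes were called (limma), while 0.993% of all tested genes were called, 0.582% higher and 0.412% lower. At an unadjusted p below 0.05 there were 7, and 3242 of the 14094 tested genes. Slco1b2 (-0.90, adjusted p = 0.0304) and Slco1a1 (-0.67, adjusted p = 0.0239) had an adjusted p below 0.05 with a change of less than 2-fold, and 2.7% of all tested genes had an adjusted p below 0.05. The other 5 were Abcc2 (-0.34), Abcc3 (-0.22), Abcb4 (-0.22), Abcc4 (0.81) and Slc51b (1.67). The recovery mice did not overlap the control mice for 6 of the 10 genes, as for 30.2% of all tested genes. In percent of the control mean, the recovery group had 53.3% ± 3.15 (SD, n = 3) for Slco1b2, 62.9% ± 4.001 for Slco1a1 and 94.0% ± 2.08 for Slc10a1. For Abcc4 it was 178% ± 52.0. Slco1b2 was called with the hepatocyte scaling (-1.03, adjusted p = 0.0132), and Slc51b was called when all 9 libraries were fitted together (adjusted p = 0.0443).

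On the log2 scale, the share of the TAA change that was left in recovery was 45.4% ± 4.34 (SD over 3 recovery mice) for Slco1b2, 28.4% ± 26.9 for Slco1a4, 9.29% ± 1.27 for Slco1a1 and 3.47% ± 1.26 for Slc10a1. It was 29.6% ± 16.1 for Abcc4, 18.0% ± 8.10 for Abcb4 and 15.5% ± 4.14 for Abcc3. The largest of the 8 called genes was Slc51b with 73.2% ± 13.4, which rests on few fragments. These shares describe genes that were called in the TAA group, whose change is the denominator, and they carry no test. Those of Slco1b2 did not overlap those of Slc10a1 or Slco1a1 in any recovery mouse. All of these shares are from the median-of-ratios scaling and depend on it. With the hepatocyte scaling, the recovery changes of Slco1b2 and Abcc3 were smaller relative to their falls, so larger shares were left.

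Some markers of other cells were higher in the TAA group, as were Abcc4 and Slc51b, which bile duct cells can also express. In recovery against TAA, Abcc4 was called lower and Slc51b was not called. Of 8 cholangiocyte markers, 6 were called higher in the TAA group and 6 lower in recovery against TAA. Cftr and Tff2, named after their values were seen, averaged under 0.1 in the lower group and passed the filter through the TAA mice, and without them 5 and 4 of 6 were called. Their summed scaled FPKM was 18.6 to 25.1 in control mice, 300.1 to 449 in TAA mice and 33.0 to 43.9 in recovery mice, most of it from Spp1, which other cells express too. Of these markers, Tff2 was listed at 0 in control 1 and 2 and in all 3 recovery mice. All 6 stellate cell and myofibroblast markers were higher in the TAA group, where their sum was 154 to 221, against 13.4 to 14.0 in the control group. Of the macrophage markers 2 of 6 were called higher, and the 5 endothelial markers had log2 fold changes of -0.65 to 0.26 (median -0.23). With FPKM as deposited, quantile normalization and the hepatocyte scaling, 4, 2 and 5 macrophage markers were called higher. The endothelial medians were then 0.40, 0.13 and 0.59, while those of all genes were 0.63, -0.05 and 0.80. Cholangiocyte markers called higher were 8, 6 and 8, and stellate cell and myofibroblast markers 6, 5 and 6. Of all 14094 tested genes, 4382, 1534 and 5469 were called higher under these scalings. The part of these cells in the exporter values was not tested.

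Other transporters, not all of the same membranes, were taken as a list of 16 genes. Of these, 14 passed the filter on low values. In the TAA group 4 were called higher and 5 lower, with a median log2 fold change of -0.44, but 5 higher and 1 lower with FPKM as deposited (median 0.20), 3 and 5 with quantile normalization (-0.15), and 6 and 1 with the hepatocyte scaling (0.38). Slco2b1, a further organic anion uptake carrier, fell by 2.15 (adjusted p = 5.96e-06) and rose by 1.81 in recovery (adjusted p = 1.21e-05). Slc10a2, the sodium-dependent bile acid carrier of ileum and bile ducts, went from 1.98 ± 0.539 (scaled FPKM, SD, n = 3) in control mice to 11.1 ± 2.02 in TAA mice and 2.49 ± 0.276 in recovery mice. The log2 fold changes were 2.45 and -2.10 (adjusted p = 9.35e-05 and 4.68e-05). Among pumps, Abcb1a, which exports drugs, rose by 2.43 and changed by -1.81 in recovery, and Abcc1, the basolateral exporter MRP1, rose by 1.26 and changed by -1.03. All 4 of these genes were called in both comparisons, except that Abcc1 was not called with quantile normalization (0.70 and -0.60) and that the recovery change of Slco2b1 was 0.85 with the hepatocyte scaling.

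Of 15 regulators of the transporters, 7 were called lower and 1 higher in the TAA group, and 7 were not called. The higher one, Gpbar1, averaged under the minimum of 0.1 in the control mice and is named after its values were seen. The counts rest on the scaling, with 2 lower and 2 higher with FPKM as deposited or the hepatocyte scaling, and 3 lower and 1 higher with quantile normalization. Nr1h4 (FXR) had a scaled FPKM of 66.3, 64.7 and 65.2 in the control mice, 35.0, 29.9 and 29.9 in the TAA mice and 61.3, 61.7 and 69.0 in the recovery mice. It changed by -1.05 on the log2 scale (adjusted p = 7.32e-05) and then 1.02 (adjusted p = 1.34e-04). Neither was called under the other scalings, where the values were -0.41 and 0.46 with FPKM as deposited, -0.57 and 0.59 with quantile normalization, and -0.23 and 0.06 with the hepatocyte scaling. Nr0b2, the FXR-induced repressor SHP, changed by -1.56 and 1.68, and Klb, the coreceptor of the intestinal hormone FGF15, by -2.02 and 1.53. Nr1i3, the xenobiotic receptor CAR, changed by -2.72 and 2.03 and was still 0.69 lower in recovered than in control liver (adjusted p = 0.0349, less than 2-fold). All of these TAA and recovery changes of Nr0b2, Klb and Nr1i3 were called. Those of Nr1i3 were called under all 4 scalings, but with the hepatocyte scaling Nr0b2 was not called (-0.75 and 0.74), nor was the recovery change of Klb (0.59). With FPKM as deposited, the TAA change of Nr0b2 (-0.93) and the recovery change of Klb (0.98) were just under 2-fold.

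Nfe2l2, which encodes the antioxidant regulator NRF2, went from 19.7 ± 0.487 (scaled FPKM, SD, n = 3) in control mice to 37.7 ± 2.53 in TAA mice and 30.8 ± 4.49 in recovery mice. The log2 fold change of 0.93 in the TAA group was under 2-fold (adjusted p = 9.02e-05). Of 6 enzymes known as NRF2 targets, 3 were called higher in the TAA group, namely Srxn1 (1.59), Nqo1 (1.48) and Gclc (1.11). In recovery, Srxn1 and Nqo1 were called lower. Under the other scalings 4 or 5 of the 6 were called higher in the TAA group, and Nfe2l2 was called as well (1.57, 1.36 and 1.75). NRF2 is known to act on Abcc2, Abcc3 and Abcc4 as well. Of these, Abcc4 was called higher under every scaling. Abcc3 was called lower on the median-of-ratios scaling only, and Abcc2 was not called and changed sign with the scaling. The part of NRF2 in these values was not tested.

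Of 14 genes of bile acid synthesis and conjugation, 8 were called lower and 1 higher in the TAA group, and 9 were called higher in recovery, with median log2 fold changes of -1.36 and 1.39. Cyp7a1, the rate-limiting enzyme, varied too widely for a statement, with a scaled FPKM of 55.9, 13.3 and 44.0 in the control mice and 30.8, 21.1 and 24.1 in the TAA mice (log2 fold change -0.35, 95% interval -1.49 to 0.79). Cyp8b1, which makes cholic acid, changed by -5.23 and 4.81, and Cyp7b1 of the alternative route by -4.65 and 4.07. Baat, which joins bile acids to taurine, changed by -2.19 and 2.16. The latter 3 genes were called in both comparisons under all 4 scalings, but the list's count of lower genes in the TAA group was 5 with FPKM as deposited, 3 with quantile normalization and 4 with the hepatocyte scaling. Its count of higher genes in recovery was 5, 4 and 3, respectively, with 1 lower gene each time. The recovery medians were 0.84, 0.73 and 0.44.

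Slco1a1 was also set beside 8 other genes that are known to be higher in male than in female mouse liver. In the TAA group 7 of these 8 were called lower, and all 8 were called higher in recovery, with median log2 fold changes of -4.73 and 4.31. Under the other scalings 6 or 7 were called lower in the TAA group, and 7 or 8 were called higher in recovery. Elovl3, a fatty acid elongase, changed by -8.42 and 9.69, Hsd3b5, a steroid dehydrogenase, by -6.56 and 4.54, and Cyp4a12b, a fatty acid hydroxylase, by -4.95 and 5.11. Elovl3 and Hsd3b5 averaged under 0.1 in the TAA mice and passed the filter through the other groups. Without them, 5 of 6 were called lower in the TAA group and 6 of 6 higher in recovery. The size of their fold changes therefore depends on the number added to each value. Unlike Slco1a1, Hsd3b5 was called lower (-2.03, adjusted p = 0.0345) and Elovl3 called higher (1.27, adjusted p = 0.0398) in recovered than in control liver.

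Genes that anchor transporters in the membrane or link them to actin were a list of 8, of which 2 were called higher and 1 lower with thioacetamide (median log2 fold change -0.10). Ezr (ezrin), abundant in bile duct cells, rose by 2.33, and Msn (moesin) by 1.23. Pdzk1, a scaffold of hepatocyte carriers, fell by 1.13, but it was at -0.50, -0.99 and -0.31 and not called with FPKM as deposited, quantile normalization and the hepatocyte scaling, whereas Ezr and Msn were called higher under all 4 scalings.

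The genes most like a member across the 9 libraries were found by the root mean square difference of the log2 values, each relative to its own control mean. For Slc10a1 these were Asl (0.109), Mgll (0.118) and Dpys (0.131). For Slco1a1, the nearest were Mup11 (0.606), Oat (0.835) and Sult2a8 (0.919), all at a larger distance. Around Abcb11 lay Armc6 (0.120), Cep135 (0.124) and Gm13199 (0.126), and around Abcc4 lay Insyn1 (0.331), Bub1b (0.333) and Kif18b (0.333). Asl belongs to the urea cycle and Oat to ornithine metabolism, Mup11 encodes a major urinary protein, and Bub1b and Kif18b act in mitosis.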

How the data were processed

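Liver mRNA of 9 mice (3 control, 3 TAA, 3 recovery) was analysed, and samples were grouped by their titles. The authors mapped quality-filtered paired-end reads to mm10 (GRCm38) with HISAT2 2.2.1, counted them per gene with featureCounts 1.5.0-p3 and deposited FPKM, with no further scaling between libraries. The kit does not mark strand, and the annotation release is not given in the sources used here.

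Depth was taken from the spacing of low FPKM values times exon length, in genes with 1 transcript in GENCODE M21. Of these low values, 58.5% to 65.7% per library were within 0.08 of a whole number of fragments, and a depth 1.99 to 2.01 times as large scored higher, the smallest well-scoring depth being kept. Read counts were therefore not rebuilt for a count test. Each library was divided by its median-of-ratios factor (0.827 to 0.878 in the control, 1.29 to 1.38 in the TAA and 0.893 to 0.907 in the recovery group). Genes whose FPKM averaged 0.1 or more were tested with limma 3.58.1 in R 4.3.3 (eBayes with trend, two-sided) on log2(scaled FPKM + 0.1), with the 6 libraries of each comparison. Benjamini-Hochberg adjustment was over all tested genes. The steps were tested on simulated data. Tables were made with Python 3.11.15, pandas 2.3.3 and SciPy 1.17.1.

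The genes and lists were chosen with earlier results of these data known. Named genes are the 10 members, from each other list the 3 called genes with the largest TAA change, from each marker list the 2 highest (printed where a result turns on them), 6 fixed genes and, for 4 members, the 3 genes with the most similar pattern. Slco1a5, Rasl12, Abcb1a as a sharer of reads and Tff2 were named after their values were seen.

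Labels number the mice 1 to 3 in each group, but nothing says that equal numbers mark a shared cage or day.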

Additional observations from a re-analysis of the deposited data

How the results depend on the processing

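The scaling, the value added before the logarithm, the minimum FPKM, the libraries in a fit, the variance trend, a test against 2-fold, the replicate block and the set of mice were varied. Of 507 values of single genes, 467 kept their direction and their side of the criteria, 22 were no longer called, 8 became called and 10 changed sign. The cause of these was not tested.

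The number of genes called between TAA and control (8) was 5 with quantile normalization, and 8 without any 1 mouse. In recovery against TAA (6) it was 2 with limma's treat, and 5 to 7 without 1 mouse, where Slco1b2 (0.98 without TAA 3) and Abcb4 crossed the 2-fold criterion. In recovery against control (0) it was 1 with the hepatocyte scaling (Slco1b2), 1 with all 9 libraries in 1 fit (Slc51b) and 0 without any 1 mouse.

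Signs changed for Abcc2 in TAA against control (0.19 as deposited, 0.51 with quantile normalization, 0.38 with the hepatocyte scaling) and in recovery against TAA (-0.46, -0.76 and -0.86). In recovery against TAA they changed for Slc51b (0.12 with quantile normalization) and Abcb11 (0.12 without TAA 2 and 0.098 without recovery 2, with a range of -0.14 to 0.12 without 1 mouse), and in recovery against control for Slc10a1 (0.0029 with quantile normalization).

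With the replicate number as a block, 8, 6 and 0 genes were called, as without it. Same-numbered mice did not deviate together (r from -0.070 to 0.125, above 0.1 in 1 of 9 pairs), so the numbers do not pair the mice. Over all genes, the block lowered the calls of recovery against control from 140 to 17. The calls over all genes in TAA against control (3520) were 5805 with the hepatocyte scaling, 2204 with a mean FPKM of at least 1, 1780 with 1 added before the logarithm and 1441 with treat. Those in recovery against TAA (3017) were 6517, 1895, 1460 and 1084. In recovery against control they were 235 with all 9 libraries in 1 fit, 85 with no variance trend, 80 with 1 added, 48 with no filter, 0 with treat and 32 to 108 without 1 mouse.

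With a mean FPKM of at least 1, Slc51b was not tested. With 3 mice per group and a few fragments in the control libraries, its fold change is poorly determined.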
